A study of Mus musculus with 24 samples.

Results

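The genes followed here were the 4 Notch receptors (Notch1, Notch2, Notch3, Notch4), the ligands Dll1, Jag1 and Jag2, and the proteases Adam10 and Adam17. They were found by gene name among the non-control probes of the Agilent arrays, which gave 12 probesets for 9 genes, of 55681 probesets and 36163 gene names in all. A probeset is the set of spots that carry the same 60-base probe. Notch1, Notch2 and Adam17 each had 2 probesets, and the other 6 genes had 1.

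Notch receptors sit in the membrane of one cell and bind Delta-like and Jagged ligands on its neighbour. Ligand binding exposes the receptor to cleavage by ADAM proteases and then by gamma-secretase, and the freed intracellular domain enters the nucleus, where it joins Rbpj and Mastermind proteins to switch on Hes and Hey genes. In the early postnatal hippocampus the pathway is known for keeping neural stem and progenitor cells undifferentiated, and in blood vessels for the behaviour of endothelial and mural cells.

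Hippocampal RNA came from wild-type C57BL/6 male mice killed on postnatal day 9 (P9), with both hippocampi of 1 animal pooled per sample and 5 arrays per group. Controls (Con) received no morphine, isolation or apnea. From P5 the MS2 and MS5 pups received morphine at 2 or 5 mg/kg, daytime isolation from the dam, and simulated apnea (nitrogen for 1 min, then oxygen for 5 min) 2 times a day. Both treated groups thus carried morphine together with stress and apnea, which cannot be told apart in a contrast with controls, and MS5 differed from MS2 in morphine dose.

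All values are log2 normalized signals, so a difference of -1 is a halving, and levels of different probes cannot be set against each other. Each of the 12 probesets was well above background on 15 of 15 arrays, except the Notch1 probeset A_55_P2047168, which was on 14. Probesets above background on no array numbered 8857 and had a median of 5.89, with their top 5 percent starting at 6.01. The number of arrays limits the precision of every value.

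The arrays lay on 2 slides of 8 and 7 arrays, each with arrays of all 3 groups. Slide 1 held control replicates 15, 17 and 18, MS2 replicates 1, 3 and 7, and MS5 replicates 8 and 13. Differences within a slide thus rest on few arrays per group and are given without a test. Some arrays stood apart. MS5 replicate 9 went against the label male: Xist was at 11.34 there and at 5.89 to 6.08 on the 14 other arrays, and Ddx3y was at 6.24 against 11.01 to 11.45. On MS2 replicate 4 the summed level of 7 hippocampal neuron markers was 16400, against 50900 to 64000 on the other arrays. The labelled tissue was borne out less there by that sum, though a fall of every marker was not shown. As MS2 group differences from controls, Neurod2, Neurod6, Camk2a and Bcl11b were at -0.76, -0.74, -0.59 and -0.3. Prox1, Grin1 and Wfs1 were at 0.07, 0.07 and -0.05. MS2 replicate 5 was dim, with a median spot signal of 58.2 against 121 to 154 elsewhere. Choroid plexus markers were low on MS5 replicates 14 and 9, at means of 8.76 and 9.75, against 11.47 to 12.37 in controls. All markers of the 7 cell types and tissues examined were well above background on every array. A summed level adds linear signals, so the brightest genes of a list weigh most in it. Ttr does so for choroid plexus, and Fabp7 for astrocytes and radial glia.

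Probes are shown so that values can be tied to the stretch of transcript they read. Those of Notch4, Dll1 and Jag1 and Notch2 A_52_P289213 passed the unadjusted threshold in a contrast below. The Notch1 and Notch2 probes printed whole passed in none. Probe sequences are those stored with the scanner data and coordinates are in mm9, with exon annotation not used here. Letters are in lower case throughout, with none singled out. Notch1 and Notch2 were each read at a pair of places whose starts lay 4810 and 2681 bases apart. A whole probe is printed for 1 of each pair, and the first 30 bases for the other Notch2 probe and for those of Notch4, Dll1 and Jag1, with coordinates always those of the whole probe.
Notch1 A_55_P2171897, minus strand, chr2:26319440-26319499: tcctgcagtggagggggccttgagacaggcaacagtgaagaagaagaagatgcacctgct
Notch2 A_55_P1982793, plus strand, chr3:97951233-97951292: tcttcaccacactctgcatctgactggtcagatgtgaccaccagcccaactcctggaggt
Notch2 A_52_P289213, plus strand, chr3:97953914-97953973: ccacttgaagtcttgcatagaaatgaacca
Notch4 A_51_P195875, plus strand, chr17:34725120-34725179: gttgatttcgagaatccctaaactctggaa
Dll1 A_51_P306017, minus strand, chr17:15504623-15504682: gattactatgagccagtctttccttgaact
Jag1 A_52_P634090, minus strand, chr2:136907433-136907492: ggagtattctcataagctagttgaatactt

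The Dll1 probe stood on each array 10 times, and every other member probe 1 time. The Adam17 probes, A_55_P1999097 and A_55_P2128188, shared 52 bases and are not independent readings.

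At an unadjusted limma p under 0.05, Dll1 and Jag1 were lower in MS2 than in controls, and Notch2, Notch4 and Dll1 were lower in MS5 than in controls. Between the treated groups Notch4 was lower in MS5. Every one of these differences was under 1.5-fold, and no member passed after adjustment over all probesets, with limma adjusted p of 0.97 to 1 throughout. Dll1 was the member that passed the unadjusted threshold in both contrasts with controls, which share the same control arrays.

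**Figure D1:**
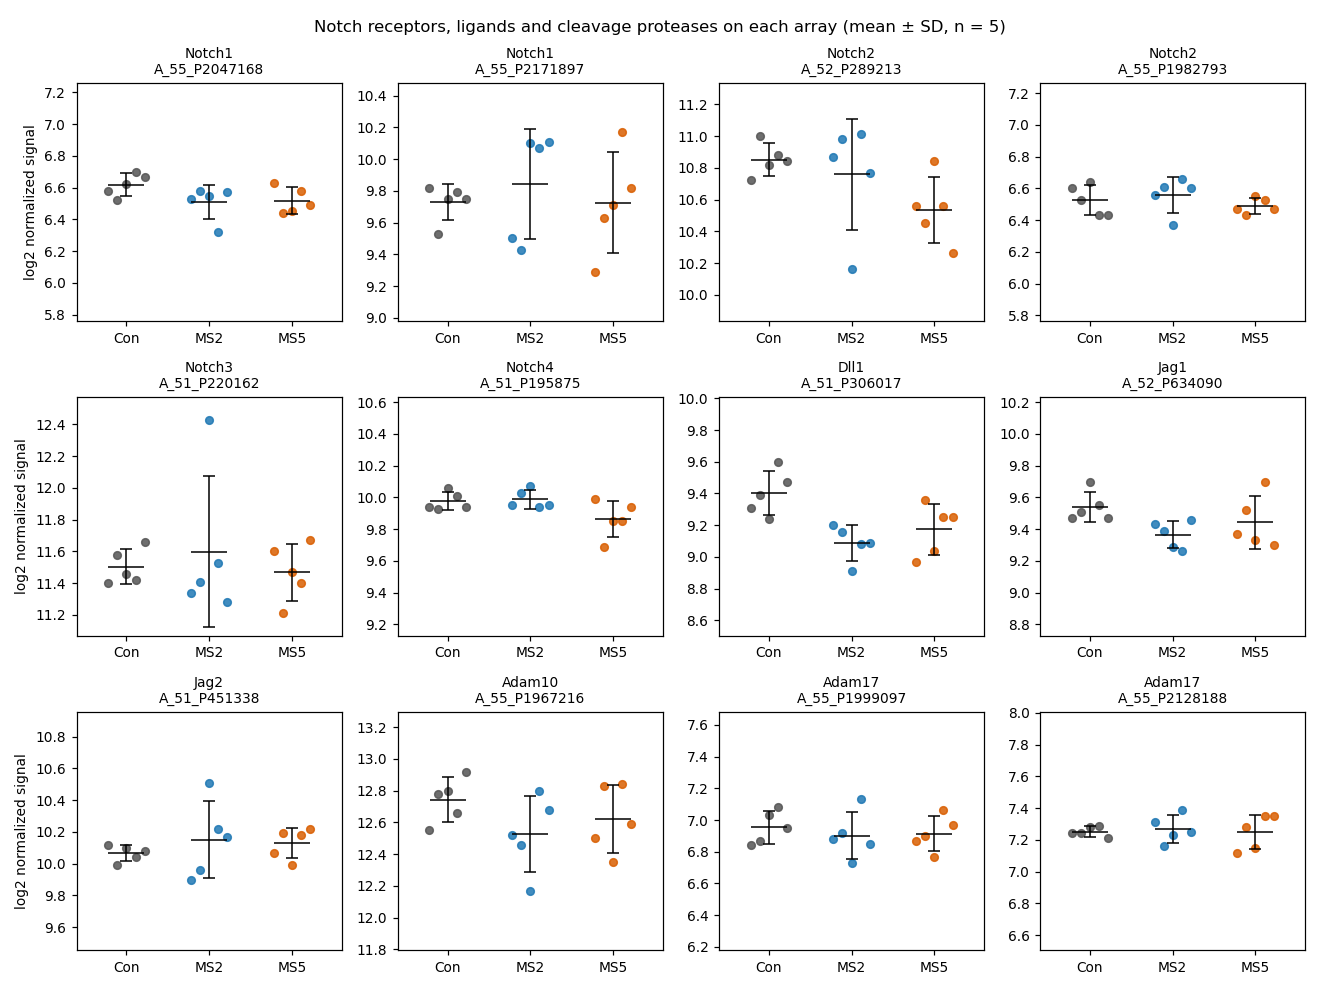
Log2 normalized signal of each member probeset on every array (points, 5 per group), with the group mean and SD; each panel spans 1.5 log2 units, on its own level. Dll1 and Jag1 show all MS2 points below all control points, and Notch2 A_52_P289213 shows 4 of 5 MS5 points below all control points.

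Dll1 encodes Delta-like 1, a ligand through which a differentiating cell activates Notch in its neighbours. Its values were 9.31, 9.39, 9.24, 9.60 and 9.47 on control replicates 15 to 19. On MS2 replicates 1, 3, 4, 5 and 7 they were 9.20, 9.16, 8.91, 9.08 and 9.09. On MS5 replicates 8, 9, 12, 13 and 14 they were 8.97, 9.36, 9.04, 9.25 and 9.25. All 5 MS2 arrays lay below all 5 control arrays, the nearest pair being 9.20 and 9.24, whereas MS5 overlapped with controls and had 2 arrays below all of them.

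The mean of Dll1 was 9.40 ± 0.14 in controls, 9.09 ± 0.11 in MS2 and 9.17 ± 0.16 in MS5 (SD, n = 5). The MS2 difference was -0.31 with a standard error of 0.08 (95% CI -0.49 to -0.13), a change of -19.4% in signal, with a limma unadjusted p of 0.00224, an adjusted p of 0.97 and a two-sided exact permutation p of 0.00794, the smallest that 5 against 5 arrays allow. The MS5 difference was -0.23 with a standard error of 0.08 (95% CI -0.41 to -0.05), with a limma unadjusted p of 0.0152, an adjusted p of 1 and an exact permutation p of 0.0556. MS5 differed from MS2 by 0.08 (95% CI -0.10 to 0.26, exact permutation p = 0.373), so neither dose group was shown to lie below the other.

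The deposited table keeps 1 of the 10 Dll1 spots, so the spots were also averaged. Within an array they had SDs of 0.14 to 0.18, larger than the SD between MS2 arrays. Part of that spread was a pattern shared by the arrays, with spots 3, 4, 7 and 9 above spots 2 and 5 on every array. A shared pattern drops out of group differences, so these SDs do not measure their error. Their means ran from 9.24 to 9.55 in controls, from 9.01 to 9.23 in MS2 and from 9.03 to 9.32 in MS5. With spots averaged, the MS2 difference was -0.29 (SE 0.07, exact permutation p = 0.00794, all 5 MS2 arrays below all controls), and the MS5 difference was -0.22 (SE 0.07, exact permutation p = 0.0317, 3 of 5 MS5 arrays below all controls). For the deposited spot, not the spot means, the MS2 and MS5 differences were -0.23 and -0.27 within slide 1 and -0.44 and -0.22 within slide 2.

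**Figure D2:**
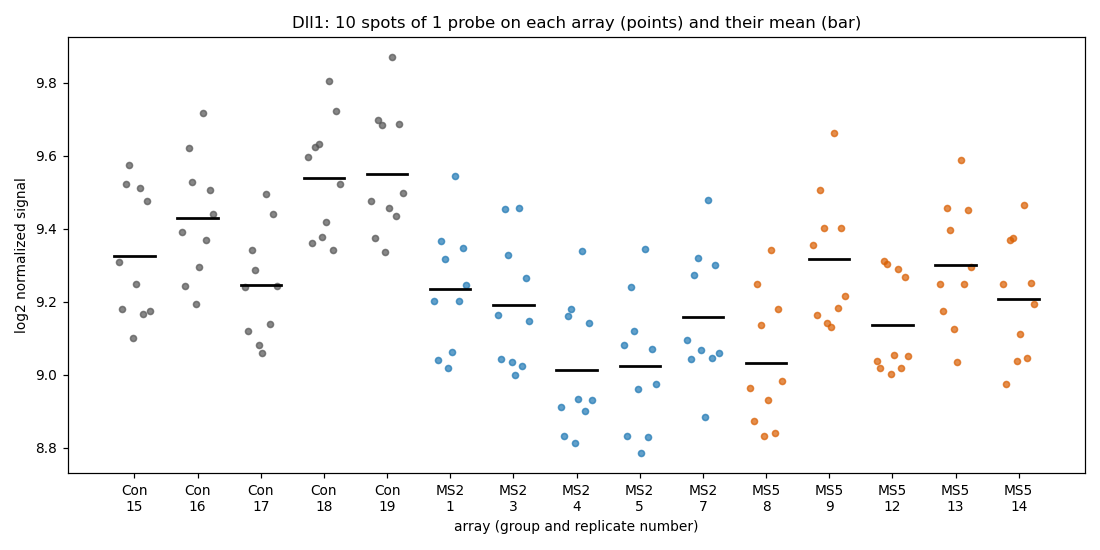
Log2 normalized signal of the 10 Dll1 spots on each array (points) and their mean (bar), with group and replicate number on the horizontal axis. Spots of 1 array spread widely, in part in a pattern shared by all arrays. The array means lie at 9.24 to 9.55 in controls and at 9.01 to 9.23 in MS2.

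Markers of progenitors, in which Dll1 is known to be made, were examined beside it. For all marker lists, passing means an unadjusted limma p under 0.05, and no marker passed after adjustment. Over all probesets, 4.17% passed in MS2 and 3.9% in MS5, each against controls. In those contrasts 51% and 49.8% of all probesets were lower by value. Of 7 markers of progenitors and cycling cells, 7 were lower in MS2 by value and 0 passed the test, with a median difference of -0.137. In MS5, 5 were lower by value and 1, Cdk1, passed, with a median of -0.118. Their summed level ran from 10300 to 13700 in controls, from 10100 to 11200 in MS2 and from 10100 to 12200 in MS5. Their part in the Dll1 result was not tested. In tissue RNA of this kind fewer cells of a type and less RNA per cell cannot be told apart.

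Jag1 encodes Jagged1, a ligand of radial glia, progenitors and vessel walls. In controls its values were 9.47, 9.51, 9.70, 9.55 and 9.47, in MS2 9.43, 9.39, 9.29, 9.26 and 9.46, and in MS5 9.37, 9.52, 9.33, 9.70 and 9.30, in the same replicate order as for Dll1. All 5 MS2 arrays lay below all 5 control arrays, by as little as 0.01 between the nearest pair, while 1 MS5 array was level with the highest control and 3 lay below every control.

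The means of Jag1 were 9.54 ± 0.10, 9.37 ± 0.09 and 9.44 ± 0.17 in controls, MS2 and MS5 (SD, n = 5). MS2 differed from controls by -0.17 (SE 0.07, 95% CI -0.33 to -0.01), with a limma unadjusted p of 0.0369, an adjusted p of 0.97 and an exact permutation p of 0.00794. For MS5 the difference was -0.10 (95% CI -0.26 to 0.06, exact permutation p = 0.341), and MS5 stood 0.08 from MS2 (95% CI -0.08 to 0.24, exact permutation p = 0.413). The call for MS2 was lost without MS2 replicate 4 (-0.15, limma unadjusted p = 0.0752), without MS2 replicate 5 (-0.15, limma unadjusted p = 0.087), without control replicate 17 (-0.13, limma unadjusted p = 0.105) or without control replicate 18 (-0.17, limma unadjusted p = 0.0586). That call was also lost with limma array weights (-0.14, limma unadjusted p = 0.0575) and with a normexp offset of 0 (-0.19, limma unadjusted p = 0.0582). Within slides 1 and 2 the MS2 difference was -0.15 and -0.21. Of 8 markers of astrocytes and radial glia, 5 were lower in MS2 by value and 0 passed, with a median difference of -0.045, and their summed level ran from 145000 to 181000 in MS2 against 153000 to 166000 in controls.

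Jag2 (minus strand, chr12:114146887-114146946), a further Jagged ligand, did not pass in any contrast. Its controls lay close together, at 9.99 to 10.12, while MS2 spread from 9.90 to 10.51 and MS5 from 9.99 to 10.22. The highest value, 10.51, was on MS2 replicate 4, and without that array the MS2 difference was 0.00 (limma unadjusted p = 0.956). The differences from controls were 0.09 in MS2 (95% CI -0.11 to 0.28, exact permutation p = 0.548) and 0.06 in MS5 (95% CI -0.13 to 0.26, exact permutation p = 0.23), and Jag2 was the 1 member of 12 probesets with a value above controls in MS5.

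Notch2 encodes a receptor of neural progenitors and of several non-neural cells. Its probeset A_52_P289213 was at 10.72, 11.00, 10.82, 10.88 and 10.84 in controls. In MS2 it was at 10.87, 10.98, 10.16, 11.01 and 10.77, and in MS5 at 10.56, 10.45, 10.84, 10.56 and 10.26. Of the MS5 arrays, 4 lay below every control, with replicate 12 among the controls, and in MS2 only replicate 4 lay below them.

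The control mean of this Notch2 probeset was 10.85 ± 0.10 and the MS5 mean was 10.53 ± 0.21 (SD, n = 5). The difference of -0.32 (SE 0.14, 95% CI -0.62 to -0.02) corresponds to a change of -19.8% in signal and had a limma unadjusted p of 0.0394, an adjusted p of 1 and an exact permutation p of 0.0238. In MS2 the mean was 10.76 ± 0.35 and the difference -0.09 (95% CI -0.39 to 0.21, exact permutation p = 0.77). MS5 minus MS2 was -0.23 (95% CI -0.53 to 0.08, exact permutation p = 0.238), and without MS2 replicate 4 it was -0.37 (limma unadjusted p = 0.00143). The MS5 difference from controls was -0.24 within slide 1 and -0.41 within slide 2. With the slide as a block it was -0.30 (limma unadjusted p = 0.0562), and its call was also lost on leaving out any 1 of control replicates 16 to 19 or of MS5 replicates 8, 9, 13 and 14, which gave differences of -0.33 to -0.25 and limma unadjusted p of 0.0539 to 0.106.

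The second Notch2 probeset, A_55_P1982793, did not show the MS5 difference. It ran from 6.43 to 6.64 in controls, from 6.37 to 6.66 in MS2 and from 6.43 to 6.55 in MS5, and MS5 differed from controls by -0.04 (SE 0.06, 95% CI -0.16 to 0.08, exact permutation p = 0.413). This probeset lay little above the background level given above. The mean of both Notch2 probesets differed by -0.18 in MS5 (limma unadjusted p = 0.0695).

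Notch2 and the choroid plexus markers were low on some of the same MS5 arrays. Notch2 was lowest on MS5 replicates 14 and 9, at 10.26 and 10.45, where the 12 choroid plexus markers, among them Ttr, Kl and Folr1, had means of 8.76 and 9.75. MS5 replicate 13, with Notch2 at 10.56, also had markers below every control, at 11.14. On MS5 replicate 8 Notch2 was at 10.56 with the markers at 11.65, and on MS2 replicate 4 it was at 10.16 with the markers at 11.68, within the control range of 11.47 to 12.37. Of these 12 markers, 12 were lower in MS5 by value and 10 passed the unadjusted threshold, with a median difference of -1.293. Over all probesets 49.8% were lower and 3.9% passed. The summed level of the markers ran from 12100 to 292000 in MS5 against 238000 to 359000 in controls. Ttr, which weighs most in that sum, did not pass (-1.54, limma unadjusted p = 0.0509). Without MS5 replicates 9 and 14, a choice made after seeing the data, the Notch2 difference was -0.20 (limma unadjusted p = 0.231). Those arrays held the lowest MS5 values of Notch2, so leaving them out brings the group means nearer to each other by itself. The 7 meningeal markers were also lower in MS5 by value, 7 of 7 with 0 passing, at a summed level of 30500 to 60100 against 27800 to 65500. Their part in the Notch2 result was not tested.

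**Figure D3:**
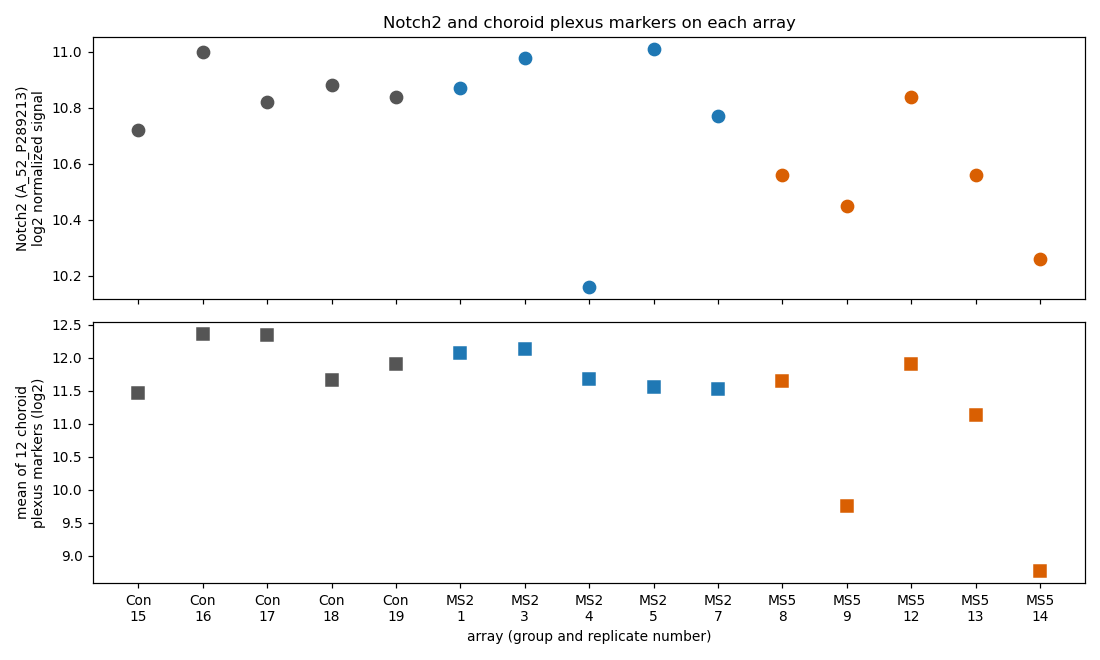
Top, log2 normalized signal of Notch2 A_52_P289213 on each array; bottom, the mean log2 signal of 12 choroid plexus markers on the same arrays. MS5 replicates 14 and 9 are low in both, whereas MS2 replicate 4 is low in Notch2 (10.16) with markers at 11.68.

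Notch4 is a receptor made mainly by endothelial cells. It was at 9.94, 9.93, 10.06, 10.01 and 9.94 in controls, at 9.95, 10.03, 10.07, 9.94 and 9.95 in MS2, and at 9.99, 9.69, 9.85, 9.85 and 9.94 in MS5. The lowest value was that of MS5 replicate 9, and MS5 replicates 9, 12 and 13 lay below every control. MS5 differed from controls by -0.11 (SE 0.05, 95% CI -0.23 to 0.00), with a limma unadjusted p of 0.0493, an adjusted p of 1 and an exact permutation p of 0.0635. It differed from MS2 by -0.13 (SE 0.05, 95% CI -0.24 to -0.01), with a limma unadjusted p of 0.0314, an adjusted p of 1 and an exact permutation p of 0.0556. Within slides 1 and 2 the first was -0.09 and -0.11 and the second -0.06 and -0.18. Without MS5 replicate 9 these differences were -0.07 (limma unadjusted p = 0.153) and -0.08 (limma unadjusted p = 0.0966). The call against controls was also lost without control replicate 15, 17, 18 or 19 or MS5 replicate 12 or 13 (-0.12 to -0.09, limma unadjusted p = 0.0504 to 0.122), and that against MS2 without MS2 replicate 3 or 4 or MS5 replicate 12 or 13 (-0.12 to -0.11, limma unadjusted p = 0.0527 to 0.0763). MS2 and controls stood 0.01 apart (95% CI -0.10 to 0.13).

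The 8 endothelial markers gave a summed level of 30700 to 33700 in MS5, 30900 to 33900 in MS2 and 30300 to 35000 in controls. In MS5, 5 of 8 were lower by value and 1, Cdh5, passed the test, with a median difference of -0.045. In MS2, 6 of 8 were lower by value and 0 passed.

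Notch1 is the receptor most closely tied to neural stem cell maintenance. Its brighter probeset, A_55_P2171897, was at 9.82, 9.53, 9.75, 9.79 and 9.75 in controls, at 9.50, 9.43, 10.10, 10.07 and 10.11 in MS2 and at 9.29, 9.63, 9.71, 10.17 and 9.82 in MS5. The MS2 arrays parted around the controls, 3 above all of them and 2 below, with no array between, so that the SD was 0.34 against 0.11 in controls. The group differences were 0.11 for MS2 (95% CI -0.23 to 0.46, exact permutation p = 0.587) and -0.01 for MS5 (95% CI -0.35 to 0.34, exact permutation p = 0.976).

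The dimmer Notch1 probeset, A_55_P2047168 (minus strand, chr2:26314630-26314689), ran from 6.52 to 6.70 in controls, from 6.32 to 6.58 in MS2 and from 6.44 to 6.63 in MS5. Its differences were -0.11 in MS2 (95% CI -0.23 to 0.01, exact permutation p = 0.0794) and -0.10 in MS5 (95% CI -0.22 to 0.02, exact permutation p = 0.0873). The lowest MS2 value, 6.32, was that of the dim array, replicate 5, where this probeset was not well above background, and without it the MS2 difference was -0.06 (limma unadjusted p = 0.231). The difference passed the unadjusted threshold with the slide as a block (-0.11, limma unadjusted p = 0.0419) and without control replicate 16 (-0.13, limma unadjusted p = 0.0435).

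Notch3 (minus strand, chr17:32257848-32257907), known from mural cells and progenitors, was at 11.40 to 11.66 in controls, at 11.28 to 11.53 on 4 MS2 arrays, and at 11.21 to 11.67 in MS5. The remaining MS2 array, replicate 4, was at 12.43. With it the MS2 group stood 0.09 from controls (95% CI -0.28 to 0.47, exact permutation p = 0.921) and MS5 -0.13 from MS2 (95% CI -0.50 to 0.24, exact permutation p = 0.762). Without MS2 replicate 4 both signs turned, to -0.11 for MS2 against controls (limma unadjusted p = 0.215) and 0.08 for MS5 against MS2 (limma unadjusted p = 0.376). Without MS2 replicates 4 and 5 and MS5 replicate 9, a choice made after seeing the data, MS2 was -0.16 from controls (limma unadjusted p = 0.0501) and MS5 was 0.19 from MS2 (limma unadjusted p = 0.028). Those MS2 arrays held the highest MS2 values of Notch3, 12.43 and 11.53, and MS5 replicate 9 the lowest MS5 value, 11.21. Leaving them out moves both differences this way by itself, so no support is drawn from these values. The 8 mural markers had a summed level of 26900 on MS2 replicate 4, within the 21800 to 28600 of controls. Over the groups that level ran from 24100 to 28900 in MS2 and from 23400 to 28100 in MS5. In MS2, 4 of the 8 were lower by value and in MS5 5 of 8, with medians of -0.029 and -0.022, and 1, Pdgfrb, passed in both (-0.19, limma unadjusted p = 0.0263, and -0.21, limma unadjusted p = 0.0154). The part of mural cells in the values of Jag1, Notch3 and Heyl was not tested.

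Adam10 (plus strand, chr9:70627859-70627918), the protease that makes the ligand-induced cut of Notch receptors, was at 12.55 to 12.92 in controls, 12.17 to 12.80 in MS2 and 12.35 to 12.84 in MS5. Of the MS2 arrays, 3 lay below every control, the lowest being replicate 4. The differences were -0.22 in MS2 (SE 0.12, 95% CI -0.47 to 0.04, exact permutation p = 0.127) and -0.12 in MS5 (95% CI -0.37 to 0.13, exact permutation p = 0.317). The MS2 difference moved with single arrays. Without MS2 replicate 4 it was -0.13 (limma unadjusted p = 0.255), and without MS2 replicate 5 it was -0.29 (limma unadjusted p = 0.0302).

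Adam17, a related sheddase that also releases many other membrane proteins, did not pass in any contrast. A_55_P2128188 (minus strand, chr12:21329378-21329437) was at 7.21 to 7.29 in controls, 7.16 to 7.39 in MS2 and 7.12 to 7.35 in MS5, and its differences were 0.02 and 0.00. The intervals ran from -0.10 to 0.13 in MS2 and from -0.12 to 0.11 in MS5. A_55_P1999097 gave -0.05 and -0.04 (exact permutation p = 0.54 and 0.548).

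**Figure D4:**
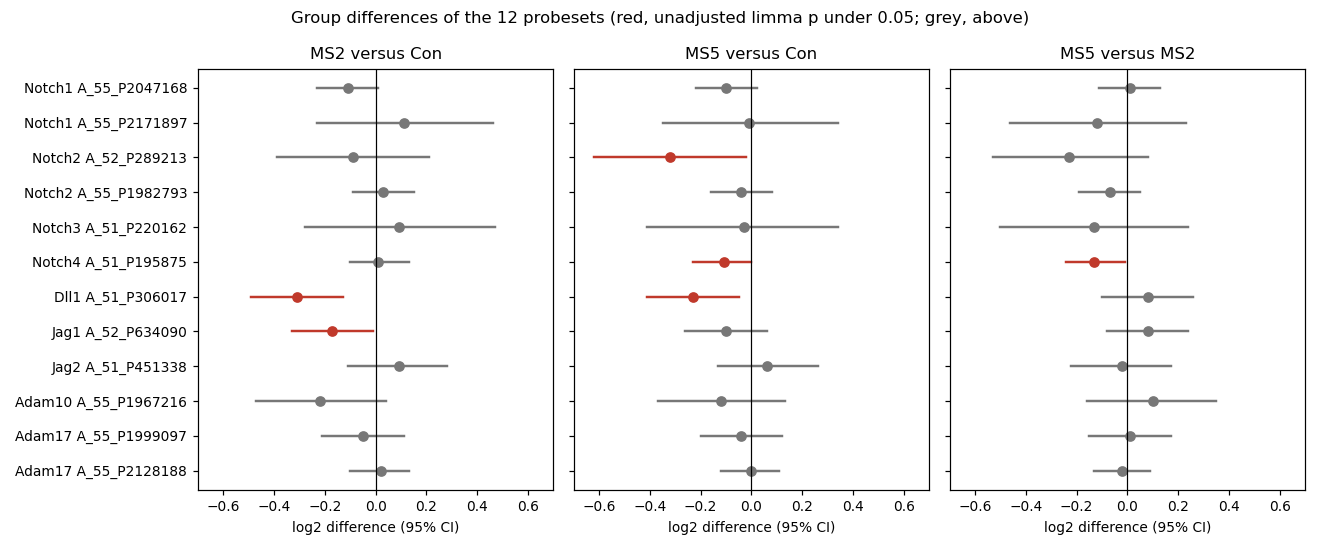
Difference of group means on the log2 scale (points) with the 95% confidence interval (lines) for each member probeset in the 3 contrasts; red marks an unadjusted limma p under 0.05. In MS5 versus controls the 3 red probesets are Notch2 A_52_P289213 at -0.32, Dll1 at -0.23 and Notch4 at -0.11.

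Read over the members, MS2 versus controls had 2 of 12 probesets past the unadjusted threshold, 16.7%, against 4.17% of all 55681 probesets. Both were lower, where 2.12% of all were. Their groups did not overlap, which held for 2 of 12 members and 0.702% of all, or 0.393% counting lower groups alone. The median difference of the members was -0.019 and 6 of 12 were below 0, against -0.002 and 51% over all probesets, so apart from Dll1 and Jag1 the members lay to both sides of 0.

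MS5 versus controls had 3 of 12 past the threshold, 25%, against 3.9% of all, and all 3 were lower, where 2.43% of all were. Members with groups that did not overlap numbered 0, where 0.828% of all did not. The members had a median of -0.068 and 11 of 12 were below 0, against 0 and 49.8% over all probesets. Probes of 1 gene share its transcript and the same arrays, so the 11 are not separate observations.

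MS5 versus MS2 had 1 of 12 past the threshold, 8.33%, against 3.97% of all, and it was lower, where 2.25% of all were. Members whose groups did not overlap numbered 0, against 0.621% of all. The median was -0.022 and 7 of 12 were below 0, where 49.3% of all were. Members that differed by over 1.5-fold and also had a limma p below 0.05 numbered 0 in each contrast, against 0.0233%, 0.228% and 0.129% of all probesets. Past an adjusted p under 0.05, limma called 0 of all probesets in each contrast, and past the unadjusted threshold it called 2324, 2173 and 2211. Without MS2 replicates 4 and 5 and MS5 replicate 9 the member counts were 1, 2 and 2 in the order given above, and without MS5 replicates 9 and 14 they were 2, 1 and 0.

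The other steps of the pathway were read from 43 genes, each by its brightest probeset. At an unadjusted limma p under 0.05, 1 passed in MS2 versus controls, 4 in MS5 versus controls and 0 in MS5 versus MS2, which is 2.33%, 9.3% and 0%, against 3.95%, 4.23% and 3.89% of all gene names. Their median differences were 0.004, -0.042 and -0.030, against -0.005, -0.001 and 0.003 over all gene names. Groups did not overlap at 1, 2 and 0 of the 43, against 0.619%, 0.832% and 0.501% of all gene names. The adjusted p of limma was 0.97 or higher for each. Of 16 dimmer probesets of 15 of these genes, 1, 2 and 1 passed in the 3 contrasts, and all that passed are named with their genes, after their values were seen. Without MS5 replicates 9 and 14 the counts were 1, 0 and 1, and without MS2 replicates 4 and 5 and MS5 replicate 9 they were 2, 7 and 1.

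Among 5 further ligands, 0 passed in any contrast. Dner, a neuronal membrane protein with ligand activity, differed from controls by 0.06 in MS2 and -0.06 in MS5. The values of Dlk2, a non-canonical ligand, were 0.01 and 0.00. The median of the 5 ligands was 0.061 in MS2 and -0.060 in MS5, with a range of -0.25 to 0.43 in MS5. The ends were Dll4 and Dlk1, named after their values were seen, and each leaned on a single array. Dll4 was at 8.45 on control replicate 15, against 7.41 to 7.50 on the other controls. Dlk1 was at 10.47 on MS5 replicate 14, against 8.79 to 9.61 on the other MS5 arrays.

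None of the 6 measured gamma-secretase genes passed (Aph1c was not analysed here). This enzyme makes the intramembrane cut that frees the Notch intracellular domain. Psenen, its presenilin enhancer subunit, differed from controls by -0.02 in MS2 and -0.05 in MS5, and Aph1b, a scaffold subunit, by -0.11 and -0.04. All 6 lay between -0.11 and 0.06 in MS2 and between -0.07 and 0.02 in MS5. A dimmer Psenen probeset, A_55_P1980302, gave -0.10 in MS5 (limma unadjusted p = 0.0367, exact permutation p = 0.0476).

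Of 6 genes that glycosylate or process the receptors, 1 passed, in MS5 versus controls. Poglut1, which adds O-glucose to the receptor's EGF repeats, was at 10.62, 10.69, 10.66, 10.62 and 10.58 in controls and at 10.60, 10.54, 10.54, 10.52 and 10.53 in MS5. The difference was -0.09 (SE 0.04, limma unadjusted p = 0.0337, adjusted p = 1, exact permutation p = 0.0159), with 4 of 5 MS5 arrays below every control. Mfng, a Fringe enzyme that extends O-fucose and is named after its values were seen, ran from 11.15 to 11.44 in controls and from 11.02 to 11.13 in MS5, so that all 5 MS5 arrays lay lower (-0.18, limma unadjusted p = 0.0879, exact permutation p = 0.00794). Its dimmer probeset, A_55_P2044439, gave -0.20 (limma unadjusted p = 0.0275).

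Among 11 genes of endocytosis and ubiquitin transfer, which act on ligand uptake and receptor turnover, 0 passed in any contrast. Neurl1a, a ubiquitin ligase of the Neuralized family, differed from controls by -0.19 in MS2 and -0.07 in MS5. Its MS2 value leaned on MS2 replicate 4, at 14.50. The other MS2 arrays were at 15.38 to 15.65, and controls at 15.35 to 15.53. Mib2, a ligase of the Mind bomb family, differed by 0.03 and 0.01. The list ran from -0.19 to 0.08 in MS2 and from -0.12 to 0.10 in MS5.

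In the nuclear complex of 9 genes, 1 passed in MS2 and 2 in MS5, each against controls. Crebbp, a histone acetyltransferase recruited by many transcription factors, was higher in both groups: 14.45 ± 0.21 in controls, 14.69 ± 0.17 in MS2 and 14.68 ± 0.16 in MS5 (SD, n = 5). The differences were 0.24 (limma unadjusted p = 0.0389, exact permutation p = 0.0873) and 0.23 (limma unadjusted p = 0.0471, exact permutation p = 0.135), and both are read against the same controls, whose lowest values were 14.16 and 14.30.

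Maml2, a Mastermind co-activator, was at 8.66, 8.65, 8.66, 8.82 and 8.94 in controls and at 8.53, 8.52, 8.64, 8.55 and 8.57 in MS5. All 5 MS5 arrays lay below all controls, by 0.01 at the nearest pair, and the difference was -0.18 (SE 0.07, limma unadjusted p = 0.0222, adjusted p = 1, exact permutation p = 0.00794). Its dimmer probeset, A_55_P2083197, gave 0.04 (limma unadjusted p = 0.568). Spen, a co-repressor of Rbpj and named after its values were seen, had all 5 MS2 arrays above all controls (0.08, limma unadjusted p = 0.0766, exact permutation p = 0.00794). A dimmer Maml3 probeset, A_55_P2147747, was higher in MS2 than in controls (0.16, limma unadjusted p = 0.0327, exact permutation p = 0.0556) and lower in MS5 than in MS2 (-0.16, limma unadjusted p = 0.0305, exact permutation p = 0.0873). Rbpj itself differed by 0.02 in MS2 and -0.06 in MS5.

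Of 6 target genes, 1 passed, in MS5. Heyl, a Hey-family repressor, was at 9.35, 9.20, 9.38, 9.28 and 9.17 in controls, at 9.10, 9.06, 9.30, 9.05 and 9.09 in MS2 and at 9.01, 9.09, 9.04, 9.34 and 8.89 in MS5. In each treated group 4 of 5 arrays lay below every control. The MS5 difference was -0.20 (SE 0.08, limma unadjusted p = 0.0183, adjusted p = 1, exact permutation p = 0.0476), and the MS2 difference of -0.16 did not pass in limma (unadjusted p = 0.0587, exact permutation p = 0.0476). Hes5, the canonical target in neural progenitors and named after its values were seen, differed by 0.01 in MS2 and -0.10 in MS5 (limma unadjusted p = 0.923 and 0.33). The MS2 value of Hes5 leaned on MS2 replicate 4, at 15.43. The other MS2 arrays were at 14.86 to 14.96, and controls at 14.86 to 15.09.

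**Figure D5:**
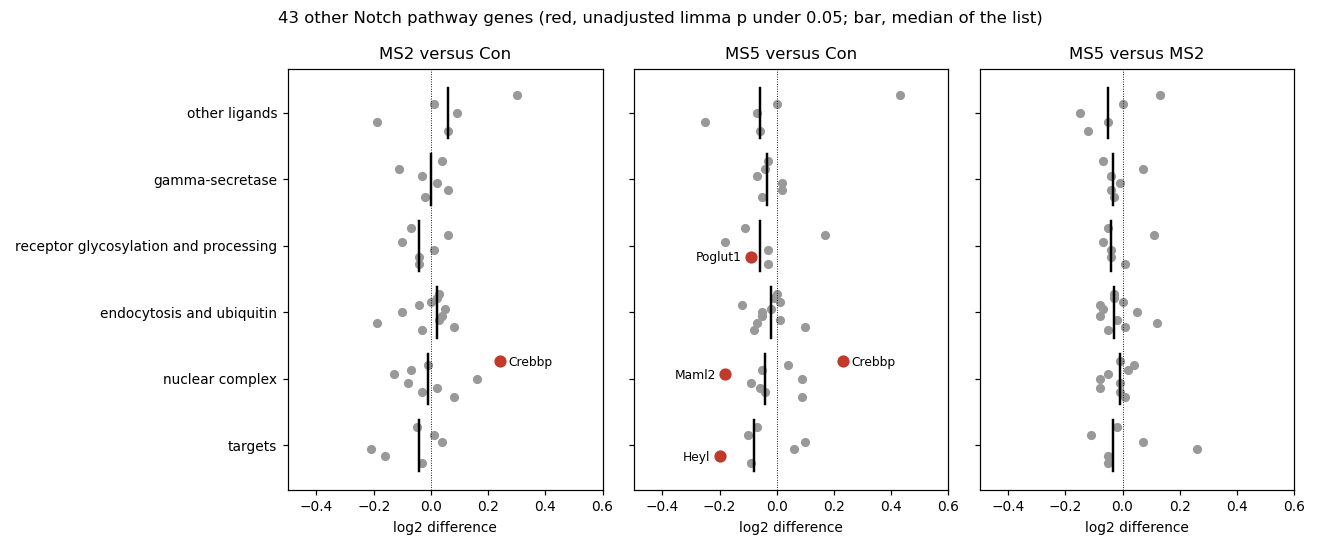
Log2 differences of 43 other Notch pathway genes (points), by list, in the 3 contrasts; bars are list medians and red points have an unadjusted limma p under 0.05. Red points are Crebbp in both contrasts with controls and Poglut1, Maml2 and Heyl in MS5 versus controls; the third contrast has none.

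Across the 15 arrays, the profiles most like each member were sought among 25720 other genes well above background everywhere. These correlations describe the arrays, which include those that stood apart, and carry no test. Dll1 was most like Ccdc112 (Pearson r = 0.89, Spearman rho = 0.85). Notch2 was most like Trappc6a (0.96, 0.87) and Atox1 (0.95, 0.92), and Notch3 most like Lig1 (0.96, 0.86) and Th (0.95, 0.79). Notch4 was most like Rnf31 (0.93, 0.82) and Marveld3 (0.82, 0.74). For Jag1 the named gene was App (0.90, 0.89), for Adam10 Sh3glb1 (0.93, 0.94), and for Notch1 Cmya5 (0.97, 0.92). Jag2 was most like 9630039A02Rik (0.91, 0.84) and 1700025F22Rik (0.90, 0.82), and Adam17 most like AK157330 (0.92, 0.95). The other places of the likeness ranking were held by probes that the array does not name by a gene symbol.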

How the data were processed

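The unit of the scanner files deposited by the authors is intensity per spot, from Agilent Feature Extraction 10.7.1.1. For the deposited series table, which is in log2, the authors applied a normexp background correction and quantile normalization. It keeps the first spot of each probe, and rebuilding it with an offset of 50 gave the same log2 values to within 5e-09. The table was used as deposited, without its control probes. The miR arrays were not used here.

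In R 4.3.3, limma 3.58.1 (lmFit, contrasts.fit, eBayes) fitted all 55681 probesets in 1 model of 3 groups, with Benjamini-Hochberg adjustment over all. Exact permutation tests ran two-sided over 252 assignments of arrays. Slides (8 and 7 arrays, each with all 3 groups) were read from the scanner data. The study's methods give 1 animal per array, and litters were not given in the sources used here.

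All member probesets are named, and pathway genes with an unadjusted p under 0.05 in any contrast, or else the 2 brightest of a list. The members, gene lists and markers were chosen with earlier results of these data known. The steps were tested on simulated data.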

Additional observations from a re-analysis of the deposited data

Results flagged for a closer look

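In 6 of 48 sets of 5 arrays (12 member probesets and 4 called pathway genes, in 3 groups), the highest or lowest array stood apart from the other 4 by more than 0.71 of the group's range, where chance gives 2.4. MS2 replicate 4, the array with a low summed level of hippocampal neuron markers, accounted for 3 of them. Notch2 (A_52_P289213) was at 10.16 against 10.77 to 11.01, Notch3 at 12.43 against 11.28 to 11.53, and Heyl at 9.30 against 9.05 to 9.10. The dim array, MS2 replicate 5, held Notch1 (A_55_P2047168) at 6.32 against 6.53 to 6.58. Control replicate 16 held Notch1 (A_55_P2171897) at 9.53 against 9.75 to 9.82, and MS5 replicate 8 held Poglut1 at 10.60 against 10.52 to 10.54.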

How the results depend on the processing

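The deposited values were set against limma array weights, normexp with offset 0, scaling of the scanner's processed signal to its 75th percentile, averaged spots, the slide as a block, a filter on background, fits of 2 groups alone, gene means, each array left out, and 2 sets of arrays left out together after seeing the data. Dll1 passed the unadjusted threshold in 20 of 20 tested settings in MS2 (-0.35 to -0.24) and in 20 of 20 in MS5 (-0.32 to -0.18). These settings reuse the same arrays and are not separate tests. Some could barely move Dll1, such as gene means, since it had no other probeset. Jag1 in MS2 passed in 13 of 20 (-0.19 to -0.11), Notch2 A_52_P289213 in MS5 in 8 of 20 (-0.39 to -0.18), and Notch4 in 6 of 20 against controls (-0.14 to -0.07) and 10 of 20 against MS2 (-0.16 to -0.07). Notch3 in MS5 versus MS2 turned to 0.19 without MS2 replicates 4 and 5 and MS5 replicate 9, which held its highest MS2 values and its lowest MS5 value. Which property of these settings moved the values was not tested.

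Counts that moved by over 1.5 times are given as members, then pathway genes. For MS2 versus controls (2 and 1), array weights gave 2 pathway genes, offset 0 gave 1 and 0, fits of 2 groups gave 2 pathway genes, and leaving out MS2 replicates 4 and 5 and MS5 replicate 9 gave 1 and 2. For MS5 versus controls (3 and 4), offset 0 gave 2 pathway genes, the processed signal 1 and 2, the slide as a block 1 member, the same 3 arrays left out 7 pathway genes, and MS5 replicates 9 and 14 left out 1 and 0. For MS5 versus MS2 (1 and 0), array weights gave 2 and 1, offset 0, the processed signal and fits of 2 groups gave 0 members, the 3 arrays left out gave 2 and 1, and MS5 replicates 9 and 14 left out gave 0 and 1. With single arrays left out, members ran from 1 to 3, 1 to 3 and 0 to 2 in these contrasts, and pathway genes from 0 to 3, 1 to 5 and 0 to 2. Pathway counts moved to 0 without control replicate 18 or MS2 replicate 3, 3 without MS2 replicate 4 and 2 without MS2 replicate 5 in the first contrast, to 2 without control replicate 19 and 1 without MS5 replicate 14 in the second, and to 2 without MS2 replicate 4 and 1 without MS5 replicate 8 or 14 in the third. No analysis paired by litter was possible. The study's methods describe untreated controls as littermates of treated pups, but the litter of each array was not given in the sources used here.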
